A study of Homo sapiens with 6 samples.

Results

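The 8 genes described here, RGS1, RGS2, RGS3, RGS10, RGS14, RGS16, RGS18 and RGS19, encode regulators of G protein signalling that are expressed in blood cells. They were taken by name from the 60612 genes of the count tables, and were chosen by their fold changes between these groups, which were already known, so their differences are given as a description and no p-value is attached to any of them. All 8 passed the filter on low counts. Transcripts were measured by total RNA sequencing in KO52, an established acute myeloid leukaemia cell line whose labelled genotype is CEBPA double mutant, a form of leukaemia in which both alleles of the C/EBPα gene are altered. Cells had been transduced with a doxycycline-inducible lentiviral vector that carried a dominant negative C/EBP peptide (dnCEBP), a dominant negative FOS peptide (dnFOS) or no peptide (empty vector, EV), all with GFP as a marker. Cells treated with doxycycline were sorted for GFP, and there were 2 libraries in each of the 3 groups. C/EBP and AP-1 factors bind DNA as dimers, and a peptide of this kind pairs with a partner into a dimer that cannot bind. The comparisons with EV asked which transcripts differed in cells with either peptide, and the third set the peptides against each other. Binding was not measured in these libraries. The study reports that both peptides decreased growth of these cells and proposes that they are toxic. Direct effects of a peptide were not separated from indirect ones. The data describe a single cell line, and nothing states that the libraries of a group came from separate cultures, so every p-value below measures only the spread between these samples.

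G protein coupled receptors pass a signal on by loading a Gα subunit with GTP, which frees it from the Gβγ pair. RGS proteins bind the loaded Gα subunit and speed up the hydrolysis of its GTP, which ends the signal. In white blood cells they are best known for setting how long chemokine and lipid receptors signal during migration. The 8 genes fall into recognised subfamilies. RGS1, RGS2, RGS3, RGS16 and RGS18 belong to the R4 subfamily, mostly small proteins with little beside the RGS domain. RGS10 and RGS14 belong to the R12 subfamily, with RGS12, and RGS19 (also called GAIP) belongs to the RZ subfamily.

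RGS18, RGS1 and RGS2 lie in that order on chromosome 1 and are all transcribed from the plus strand, within 653.8 kb of one another. RGS16 lies elsewhere on the same chromosome (chr1:182598623-182604408, minus strand), and the others on other chromosomes, RGS14 at chr5:177357837-177372601, RGS3 at chr9:113444731-113597743, RGS10 at chr10:119499828-119542708 and RGS19 at chr20:64073181-64079988. All 8 had an entry in RefSeq's table of promoters. The bases before their starts are shown because these neighbours differed in the main fit. There, RGS1 and RGS2 were well below EV in dnFOS, and RGS18 overlapped EV. With a trend of level on GC content and length removed, RGS18 was called lower than EV too, at a log2 fold change of -0.48. Sequences are from RefSeq on GRCh38.p14, on the transcribed strand, and stop before the start of the gene in GENCODE release 29. Capitals mark matches to TTGCNNAA, a C/EBP consensus, and to TGTGGT, a RUNX consensus, read on both strands.
RGS1, chr1:192575523-192575726: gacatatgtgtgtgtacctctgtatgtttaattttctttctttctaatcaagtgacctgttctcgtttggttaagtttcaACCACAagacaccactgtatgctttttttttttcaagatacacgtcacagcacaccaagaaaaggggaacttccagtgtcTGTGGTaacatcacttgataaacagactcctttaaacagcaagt
RGS2, chr1:192808789-192809038: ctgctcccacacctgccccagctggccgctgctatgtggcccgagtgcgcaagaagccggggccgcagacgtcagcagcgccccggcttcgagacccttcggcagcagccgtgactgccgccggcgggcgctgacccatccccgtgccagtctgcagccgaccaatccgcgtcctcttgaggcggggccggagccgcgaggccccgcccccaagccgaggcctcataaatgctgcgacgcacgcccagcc
RGS18, chr1:192158212-192158456: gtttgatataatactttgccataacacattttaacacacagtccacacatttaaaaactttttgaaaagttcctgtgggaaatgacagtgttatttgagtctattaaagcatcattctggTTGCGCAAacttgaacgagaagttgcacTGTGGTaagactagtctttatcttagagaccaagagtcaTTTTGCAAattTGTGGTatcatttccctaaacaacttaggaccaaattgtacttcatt

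The windows searched were the 250 bases before each RefSeq start, 14 windows for the 8 genes, since RGS3, RGS10 and RGS19 have more than 1 start. The AP-1 consensus TGANTCA was in 0 of the 14 windows and in 6.57% of the 35116 windows of all genes. The CRE consensus TGACGTCA, held by 1.65% of all windows, and the composite C/EBP and AP-1 consensus TGATGNAA, held by 3.14%, were in 0 of the 14 as well. The C/EBP letters were in 9.05% of all windows and in windows of 2 members. RGS18 held TTGCGCAA, which began 130 bases before the start, and TTTTGCAA, which began 63 bases before it, and 1 window of RGS19 held TTGCTCAA. The RUNX letters were in 11.0% of all windows and in windows of 3 members. In RGS1 they began 170 and 90 bases before the start, in RGS18 102 and 52 bases, and in RGS14 97 bases, and no match overlapped another. A match describes the letters only, and more distant elements were not searched.

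Total counts ran from 9862994 to 27663179 per library, and both dnFOS libraries were shallower than the other 4. The spread between the 2 libraries, as chi-square per degree of freedom over genes, was 15.8 in dnFOS, 8.22 in EV and 9.27 in dnCEBP. It was taken on raw counts, where spread beyond counting error weighs more at greater depth, so these values do not compare the groups at equal depth. The groups shared a single estimate of the spread in the fit, so standard errors of dnFOS differences may be too small. Most fits that leave 1 library in a compared group called fewer of all genes tested. A call lost in such a fit therefore does not by itself show that a gene rests on the library left out. A floor of 3 counts stood at 0.108 to 0.304 CPM, the share of a library's counts scaled to a fixed total, far below the level of any of the 8 genes, the lowest of which had 138 counts in its shallowest library. CPM values below use library sizes scaled by the trimmed mean of M values (TMM). FOS stood at 22.2 and 29.1 CPM in EV and at 30.9 and 26.0 CPM in dnFOS, and CEBPA at 392.7 and 381.5 CPM in EV and at 389.2 and 344.6 CPM in dnCEBP, so neither gene checks the labels, and whether reads of the inserts were counted to them was not tested. The myeloid blast list (CD34 and MPO among its 8 genes) had a summed level of 585.6–649.6 CPM in the EV, 412.4–440.5 CPM in the dnCEBP and 499.1–535.2 CPM in the dnFOS libraries. MPO, at 239.1 and 194.0 CPM in EV, 63.5 and 53.0 CPM in dnCEBP and 152.8 and 140.0 CPM in dnFOS, accounted for most of the lower sums, whereas CD34 was at 133.7 and 134.6, 153.8 and 144.9, and 116.4 and 113.8 CPM. In bulk RNA, fewer cells with a transcript and less of it per cell cannot be told apart.

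RGS1 and RGS2 had the widest ranges of the 8 genes, and both were lowest with the FOS peptide. RGS1, the regulator best known for dampening chemokine responses of lymphocytes, stood at 41.0 and 43.3 CPM in EV, at 55.0 and 60.5 CPM in dnCEBP and at 21.7 and 22.9 CPM in dnFOS. The 3 groups did not overlap, with dnCEBP highest. The fitted log2 fold change was 0.45 ± 0.11 (standard error) in dnCEBP against EV, -0.92 ± 0.12 in dnFOS against EV and -1.37 ± 0.11 in dnFOS against dnCEBP. RGS1 thus differed 2.59-fold between the cells with the 2 peptides. In dnCEBP against EV the log2 fold change ran from 0.38 to 0.52 over the fits without 1 library. It was not called without dnCEBP replicate 2, EV replicate 1 or EV replicate 2. With a trend on GC content and length removed, the 3 differences were 0.34, -1.22 and -1.55. With library totals in place of TMM they were 0.43, -0.82 and -1.25.

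RGS2, which acts chiefly on Gαq, stood at 71.5 and 69.1 CPM in EV, at 78.7 and 82.8 CPM in dnCEBP and at 31.2 and 29.5 CPM in dnFOS. Its level in dnFOS was 2.31-fold lower than in EV, at -1.21 ± 0.10 on the log2 scale, and 2.66-fold lower than in dnCEBP, at -1.41 ± 0.10. Against EV the level in dnCEBP was higher in both libraries but by little, 0.20 ± 0.09. RGS1 and RGS2 together came to 112.4 and 112.5 CPM in EV, 133.7 and 143.4 CPM in dnCEBP and 52.4 and 52.9 CPM in dnFOS. The other 6 genes together held 270.8–278.8 CPM in EV, 288.9–298.8 CPM in dnCEBP and 218.2–237.4 CPM in dnFOS.

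**Figure D1:**
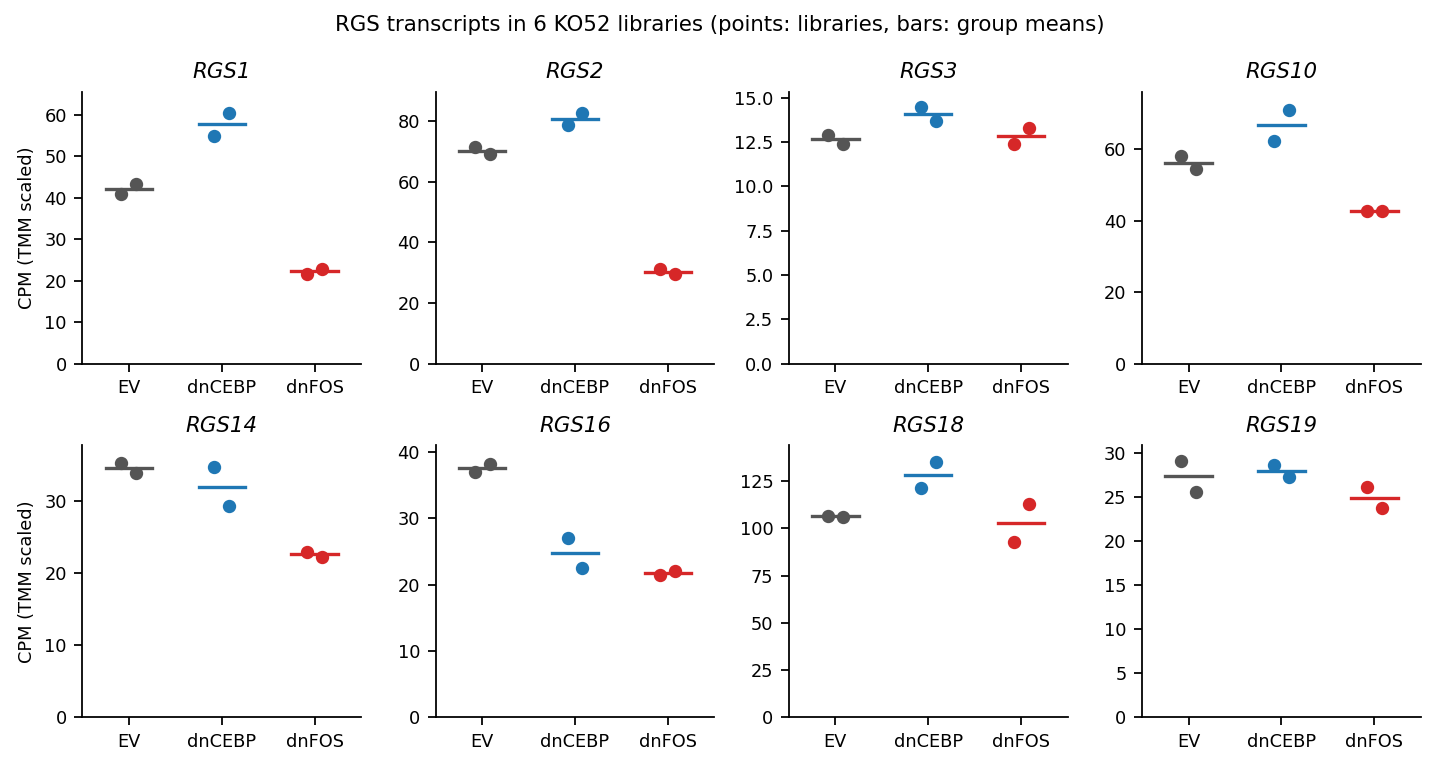
Level of each of the 8 RGS genes in TMM-scaled CPM (vertical axis, from 0) in the 2 libraries (points) of EV, dnCEBP and dnFOS, with group means as bars. RGS1 and RGS2 sit lowest in both dnFOS libraries, RGS16 is lower than EV with either peptide, and RGS3 and RGS19 vary little.

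RGS16 was the one gene of the 8 whose libraries lay below both EV libraries with either peptide. This regulator of Gαi and Gαq signalling stood at 37.0 and 38.2 CPM in EV, at 27.0 and 22.5 CPM in dnCEBP and at 21.4 and 22.1 CPM in dnFOS. Its log2 fold change against EV was -0.60 ± 0.12 in dnCEBP and -0.79 ± 0.13 in dnFOS. Between the peptides it was -0.19 ± 0.13, small beside its error. Both comparisons share the EV libraries, and the fall in dnCEBP was no longer called without dnCEBP replicate 2 or without EV replicate 2, at -0.47 and -0.58.

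RGS18, the regulator of platelets and megakaryocytes, was the most abundant of the 8 by counts. It stood at 106.4 and 106.2 CPM in EV, at 121.6 and 135.0 CPM in dnCEBP and at 92.7 and 113.1 CPM in dnFOS. The dnFOS libraries lay on either side of both EV libraries, and the log2 fold change was -0.05 ± 0.09. In dnFOS against dnCEBP it was -0.32 ± 0.09, but without dnCEBP replicate 2, without dnFOS replicate 1, or with library totals in place of TMM, it was no longer called, at -0.25, -0.18 and -0.20. Removing a trend of level on GC content and length turned the difference between dnFOS and EV into -0.48, which was then called, so the position of RGS18 against EV depended on that step. RGS3, a large R4 member with several starts, stood at 12.9 and 12.4 CPM in EV, 14.5 and 13.7 CPM in dnCEBP and 12.4 and 13.3 CPM in dnFOS. Its log2 fold changes were within 0.16 of 0 in all 3 comparisons, at errors of 0.15 to 0.16.

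The R12 genes were lower in dnFOS than in either other group. RGS10, an RGS protein abundant in myeloid cells and platelets, stood at 58.2 and 54.4 CPM in EV, at 62.3 and 71.1 CPM in dnCEBP and at 42.8 and 42.7 CPM in dnFOS, with log2 fold changes of 0.24 ± 0.10 in dnCEBP against EV, -0.40 ± 0.10 in dnFOS against EV and -0.64 ± 0.10 between the peptides. Without EV replicate 1 its difference between dnFOS and EV was no longer called, at -0.35. RGS14, which also binds Ras family GTPases and inactive Gαi, stood at 35.3 and 33.9 CPM in EV, at 34.7 and 29.3 CPM in dnCEBP and at 22.9 and 22.3 CPM in dnFOS. Its level in dnFOS was below EV by -0.61 ± 0.12 and below dnCEBP by -0.50 ± 0.12, while dnCEBP and EV overlapped. With the GC trend removed the difference from EV was smaller, -0.36, and still called. Without dnCEBP replicate 1 the difference between the peptides was no longer called, at -0.37. RGS19, the RZ member, varied least with RGS3. It stood at 29.1 and 25.6 CPM in EV, 28.6 and 27.3 CPM in dnCEBP and 26.1 and 23.7 CPM in dnFOS, and no log2 fold change was beyond -0.16 ± 0.13.

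**Figure D2:**
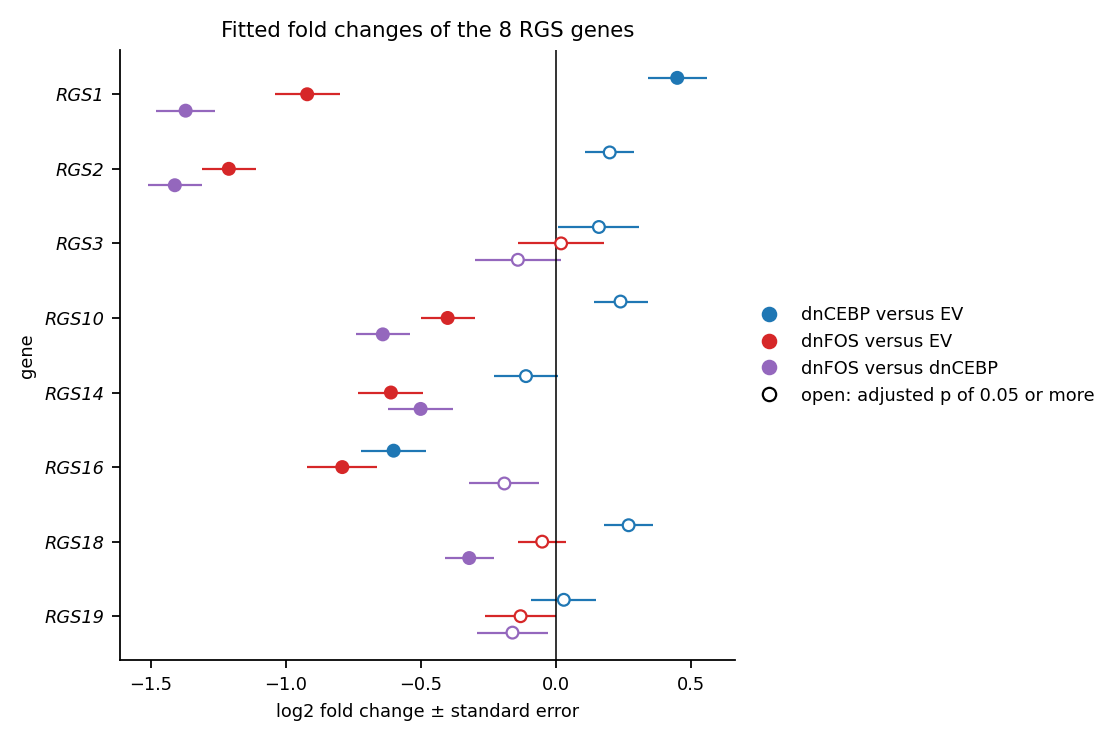
Fitted log2 fold change of each RGS gene (horizontal axis, bars: standard error) in dnCEBP versus EV (blue), dnFOS versus EV (red) and dnFOS versus dnCEBP (purple), with open points for genes not called over all genes tested. RGS1 runs from 0.45 in dnCEBP to -0.92 in dnFOS, and RGS2 reaches -1.41 between the peptides.

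Over all 15395 genes tested with edgeR's quasi-likelihood test at a Benjamini-Hochberg adjusted p under 0.05, 1.07% were called in dnCEBP against EV, 0.624% higher and 0.448% lower. Of the 8 RGS genes, 2 were called there, RGS1 higher and RGS16 lower. In dnFOS against EV 15.0% of all genes were called, 7.76% as lower, and of the 8 RGS genes 5, namely RGS1, RGS2, RGS10, RGS14 and RGS16, all lower. In dnFOS against dnCEBP 14.7% of all genes were called, 7.84% as lower, and of the 8 RGS genes 5, namely RGS1, RGS2, RGS10, RGS14 and RGS18, all lower. The list was chosen with these values known, so nothing is read from these counts against the shares over all genes. The median log2 fold change of the 8 genes was 0.18 in dnCEBP, -0.51 in dnFOS and -0.41 between the peptides, beside 0.0, 0.0 and 0.02 over all genes tested. Without overlap of the libraries, 5 of the 8 were higher in dnCEBP than in EV (21.9% of all genes tested) and 1 lower (20.9%), 5 were lower in dnFOS than in EV (28.4%), and all 8 were lower in dnFOS than in dnCEBP (25.9%).

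Per kilobase of exon, RGS10, RGS18 and RGS2 were the leading transcripts of the set in EV, at means of 45.0, 37.9 and 33.5 CPM per kb. RGS16 followed at 15.5 CPM per kb, RGS19 at 13.5, RGS1 at 10.2 and RGS14 at 9.11, and no neighbours in this order overlapped between libraries. RGS3 was last at 0.917 CPM per kb, counted over 13793 bases of exon from all its annotated isoforms. Lengths of the other genes were joined over isoforms too, 4117 bases for RGS1, whose gene spans 4305, and 1252 bases for RGS10. Ranks between genes therefore depend on the annotation, which a lack of overlap between libraries does not address. In dnCEBP RGS1 moved up from the sixth to the fourth place at 13.4–14.7 CPM per kb in the 2 libraries, where it overlapped RGS19 at 13.4–14.1, and RGS16 dropped below both at 10.2. In dnFOS RGS18 at 36.7 and RGS10 at 34.2 CPM per kb led and overlapped each other. RGS2 came next at 14.5, near RGS19 at 12.3 but without overlap, and RGS1 fell to the seventh place at 5.42 CPM per kb. RGS2 made up 20.2–20.3% of the summed level per kb of the 8 genes in EV and 11.6–12.8% in dnFOS, and RGS18 22.5–23.2% and 28.5–33.1%.

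**Figure D3:**
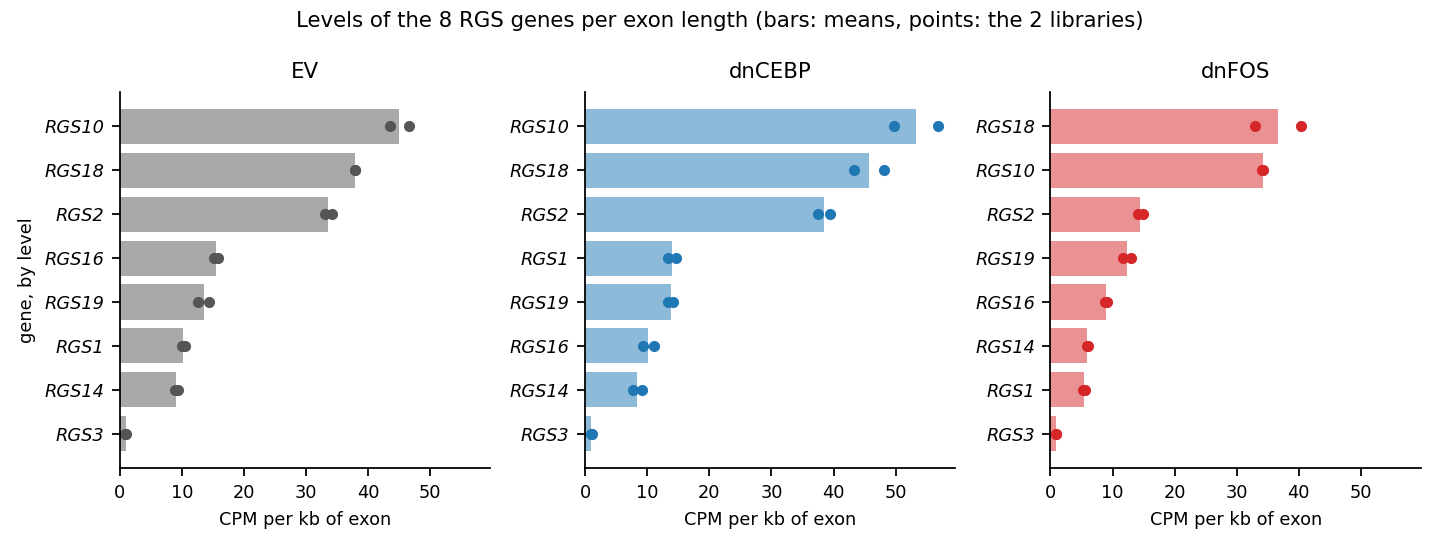
Level of the 8 RGS genes per kilobase of exon (horizontal axis, CPM per kb) in EV, dnCEBP and dnFOS, ordered within each group, with bars for means and points for the 2 libraries. RGS10, RGS18 and RGS2 lead in EV and dnCEBP, while RGS2 falls to 14.5 and RGS1 to 5.42 CPM per kb in dnFOS.

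The profile of RGS1 over the 6 libraries, compared by the Euclidean distance between centred log2 CPM values of 12317 genes, was nearest to those of VWA5A (0.179), IL1RL1 (0.204), PCDH10 (0.205), SLC2A3 (0.209) and F2RL3 (0.21). IL1RL1 encodes the receptor of interleukin-33, SLC2A3 a glucose transporter and F2RL3 a thrombin-activated G protein coupled receptor. IL1RL1 stood at 64.4 and 57.2 CPM in EV, at 79.6 and 81.6 CPM in dnCEBP and at 32.2 and 32.9 CPM in dnFOS, and F2RL3 at 4.49 and 4.67, 5.99 and 6.28, and 2.67 and 2.42 CPM. For RGS2 the nearest were HDC (0.169), which makes histamine, S100A6 (0.172), a calcium-binding protein, and SLC2A3 (0.205). HDC stood at 324.6 and 348.0 CPM in EV, 399.1 and 393.0 CPM in dnCEBP and 159.1 and 135.6 CPM in dnFOS. RGS2 ranked 26 among the genes nearest to RGS1 and RGS1 ranked 25 among those nearest to RGS2, each at a distance of 0.352, and the next member, RGS10, ranked 264 for RGS1. The order rests on 6 libraries in 3 groups and is a description.

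Along chromosome 1, RGS18, RGS21, RGS1, RGS13 and RGS2 followed each other with gaps of 131.2, 208.4, 56.1 and 148.7 kb. RGS13, between RGS1 and RGS2, stood at 1.13 and 1.37 CPM in EV, 1.63 and 2.70 CPM in dnCEBP and 1.11 and 2.32 CPM in dnFOS, so its libraries spread widely and its log2 fold change of 0.40 ± 0.44 in dnFOS did not pass the test (edgeR adjusted p = 0.605). RGS21 had 0 counts in all 6 libraries. Beyond RGS2, RO60, which encodes an RNA-binding autoantigen, rose in dnFOS. It stood at 97.8 and 104.2 CPM in EV and at 149.3 and 179.5 CPM in dnFOS, 0.70 ± 0.09 on the log2 scale (edgeR adjusted p = 7.14e-06), opposite to RGS2, 247.1 kb away. With the GC trend removed its log2 fold change against EV was 0.30, still called. UCHL5, GLRX2 and CDC73, the other protein-coding genes tested within 500 kb of RGS1 or RGS2, did not pass, at 0.32 ± 0.13, -0.26 ± 0.20 and 0.11 ± 0.12 in dnFOS against EV. The pseudogene ZNF101P2 had at most 13 counts in any library and did not pass (0.21 ± 0.70 in dnFOS against EV). A long noncoding RNA, ENSG00000285280, runs over the cluster on the minus strand and shares 153 exon bases with RGS18, but held at most 14 counts in any library.

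**Figure D4:**
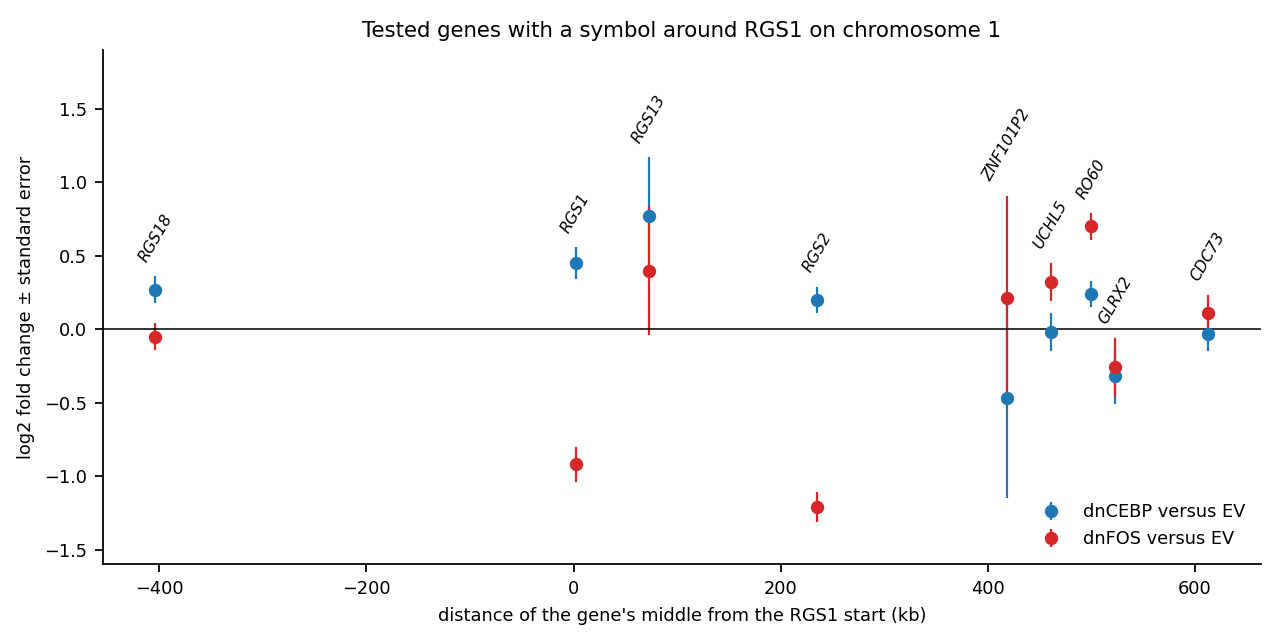
Log2 fold change with its standard error (vertical axis) of tested genes with a symbol, by the distance of each gene's middle from the start of RGS1 in kb (horizontal axis), for dnCEBP versus EV (blue) and dnFOS versus EV (red). RGS1 and RGS2 lie at -0.92 and -1.21 in dnFOS, RGS18 at -0.05 and RO60 at 0.70. With the trend on GC content and length removed (not drawn), RGS18 was at -0.48.

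Of the 13 other genes named RGS, only RGS5, RGS12 and RGS13 passed the filter on low counts. RGS12, the R12 relative of RGS10 and RGS14, fell in dnFOS. It stood at 8.35 and 6.96 CPM in EV, 8.84 and 6.66 CPM in dnCEBP and 5.21 and 3.38 CPM in dnFOS. The log2 fold change was -0.80 ± 0.23 against EV (edgeR adjusted p = 0.0193) and -0.82 ± 0.23 against dnCEBP (adjusted p = 0.0156). The first was -0.56 without dnFOS replicate 2 and -0.66 without EV replicate 1, and neither passed, nor did limma-voom (adjusted p = 0.0536). The second did not pass without dnCEBP replicate 1, at -0.60, or without dnFOS replicate 2, at -0.58. In dnCEBP against EV edgeR, DESeq2 and limma-voom each called 0 of the 3, and 0 had an unadjusted edgeR p under 0.05. RGS5 stood at 1.37 to 3.28 CPM over the 6 libraries, and its log2 fold change between dnFOS and EV was 0.05 ± 0.39. It shares 534 exon bases with a gene on the same strand, ENSG00000232995, which held up to 46 counts, so its level is uncertain. RGS4 and RGS7 had 0 counts throughout, RGS6, RGS11, RGS17, RGS20 and RGS22 had at most 5 counts in any library, RGS9 at most 9 and RGS8 at most 16.

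The wider pathway list held 110 genes, of which 78 were tested. In dnCEBP 1 passed, the chemokine receptor CXCR4. In dnFOS 16 passed, 6 higher and 10 lower, and between the peptides 17 passed, 9 higher and 8 lower, beside 15.0% and 14.7% of all genes. The split by direction depended on the scaling, since library totals in place of TMM gave 9 higher and 9 lower against EV and 13 higher and 4 lower between the peptides. The median log2 fold change of the 78 was -0.06, 0.0 and 0.01 in these comparisons.

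CXCR4, the receptor of CXCL12, stood at 43.8 and 37.8 CPM in EV, at 28.1 and 26.7 CPM in dnCEBP and at 24.7 and 21.5 CPM in dnFOS. It fell by 0.57 on the log2 scale in dnCEBP (± 0.12, edgeR adjusted p = 0.00926) and by 0.82 in dnFOS (± 0.12, adjusted p = 4.35e-05). Without dnCEBP replicate 2 or EV replicate 1 the fall in dnCEBP did not pass, at -0.54 and -0.46. The levels of CXCR4 and of RGS16 were each below EV with either peptide. Among the other 43 receptors, the prostaglandin E2 receptor PTGER4 (-0.70 ± 0.13, adjusted p = 0.000419), the orphan receptor GPR132 (-1.33 ± 0.25, adjusted p = 0.000573) and the oxysterol receptor GPR183 (-0.57 ± 0.19, adjusted p = 0.0385) fell in dnFOS against EV, the last called under 6 of the 9 other settings and in 3 of the 6 fits without 1 library. S1PR1, a sphingosine 1-phosphate receptor, had 25 and 17 counts in EV and 2 in each dnFOS library, a fall that was called (edgeR adjusted p = 0.0348). With each dnFOS library set at the floor of 3 counts, the mean in EV was 3.76-fold higher, which is not a bound on the true fold. The call of S1PR1 was lost without dnFOS replicate 1, dnFOS replicate 2 or EV replicate 1. CYSLTR1, a leukotriene receptor, rose by 0.47 ± 0.11 (adjusted p = 0.00481), a call lost without dnFOS replicate 2 or EV replicate 2. Against dnCEBP, the low receptors LPAR1 (1.40 ± 0.41, adjusted p = 0.0181), S1PR2 (1.30 ± 0.42, adjusted p = 0.0336) and P2RY2 (1.25 ± 0.43, adjusted p = 0.0474) were higher in dnFOS and P2RY10 lower (-0.94 ± 0.25, adjusted p = 0.00935). None of the 4 exceeded 6.28 CPM in any library, and each call was lost on leaving out dnFOS replicate 2. The calls of S1PR2 and P2RY2 were also lost with DESeq2 and limma-voom, and P2RY2 ran from 0.74 without dnCEBP replicate 2 to 2.18 without dnCEBP replicate 1.

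Among the Gα subunits, the substrates of RGS proteins, GNAQ stood at 56.4 and 61.7 CPM in EV and at 75.5 and 86.4 CPM in dnFOS, higher by 0.45 ± 0.10 (edgeR adjusted p = 0.00167). GNA15, a haematopoietic Gαq relative, was lower by -0.44 ± 0.09 (adjusted p = 0.000834), and GNAI1 differed between the peptides by -0.75 ± 0.13 (adjusted p = 0.000152). Of the Gβ and Gγ subunits, GNB4 (0.46 ± 0.09, adjusted p = 0.000589) and GNG11 (0.52 ± 0.12, adjusted p = 0.00242) rose in dnFOS and GNB2 fell (-0.52 ± 0.13, adjusted p = 0.009), and GNB5 was higher in dnFOS than in dnCEBP (0.62 ± 0.20, adjusted p = 0.0347). Among effectors, PLCB1, a phospholipase activated by Gαq, rose (0.85 ± 0.23, adjusted p = 0.0116) and the adenylyl cyclase ADCY6 fell (-1.20 ± 0.34, adjusted p = 0.0152). GRK2, a receptor kinase that carries an RGS domain, fell by 0.42 (± 0.09, adjusted p = 0.0014), as did GPSM3, a binder of inactive Gα (-0.43 ± 0.10, adjusted p = 0.00317). With the trend on GC content and length removed, the calls of GRK2, GNA15, GNB2 and GPSM3 in dnFOS against EV ended, at values between -0.23 and -0.18, and GNAQ and GNB4 were smaller, 0.25 and 0.27, and still called. Other calls were lost with another tool or without 1 library. ADCY6 did not pass with limma-voom (adjusted p = 0.063), without dnFOS replicate 2 (-0.91) or without EV replicate 2 (-0.92), PLCB1 without dnFOS replicate 1 or EV replicate 1, GNG11 or GPSM3 without EV replicate 1, GNB2 without dnFOS replicate 2 or EV replicate 1, and GNB5 with DESeq2, with limma-voom, or without dnCEBP replicate 1, dnCEBP replicate 2 or dnFOS replicate 2.

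**Figure D5:**
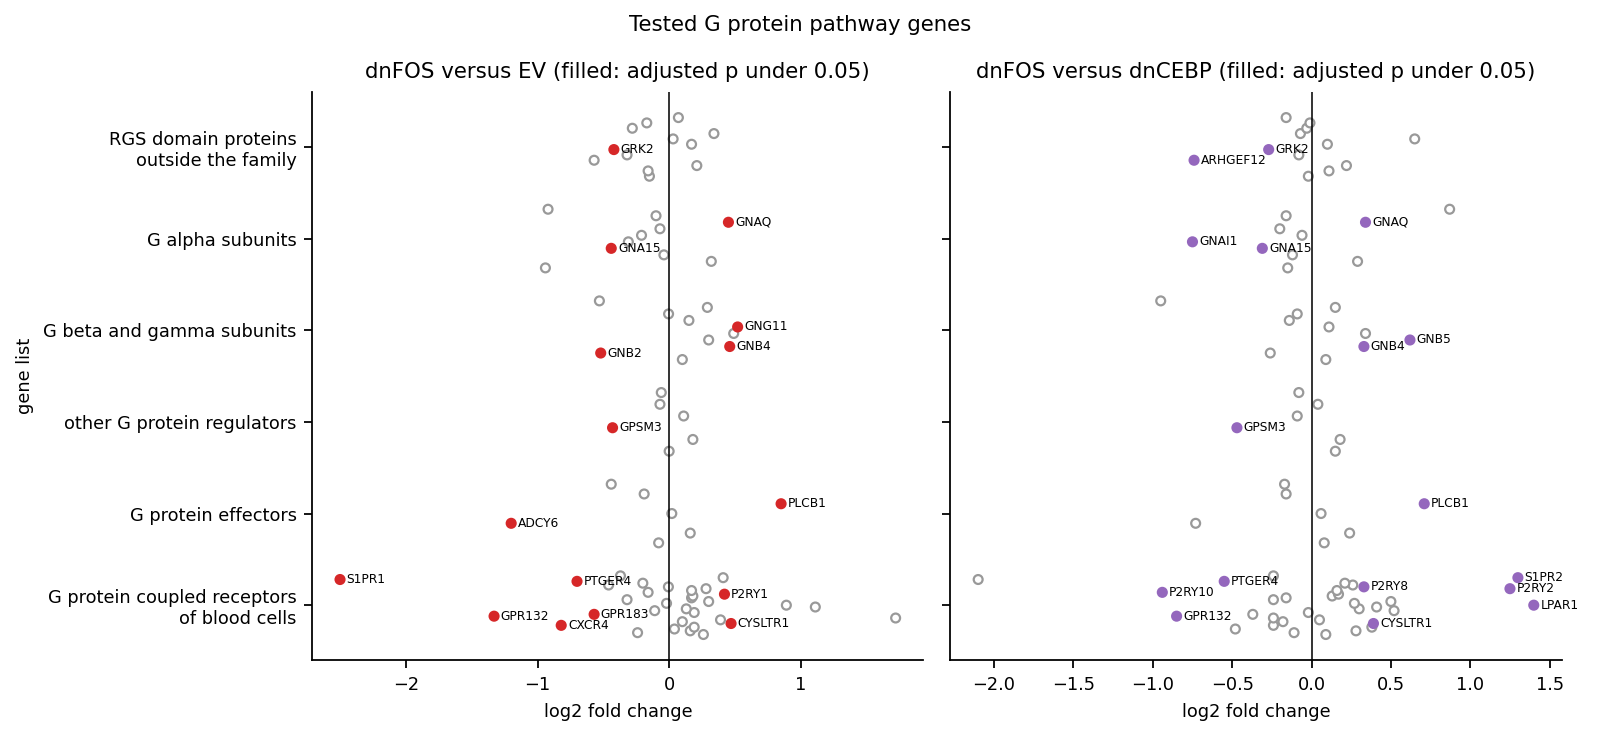
Log2 fold change (horizontal axis) of the 78 tested G protein pathway genes by list (rows) in dnFOS versus EV (left) and dnFOS versus dnCEBP (right), with filled, labelled points for genes at an adjusted p under 0.05. Called genes lie on both sides of 0, 6 higher and 10 lower than EV.

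Markers of other blood lineages were set beside the RGS levels, since RGS18 and RGS10 are platelet genes and RGS1 a lymphocyte gene. The 5 megakaryocyte and platelet markers summed to 183.1–194.5 CPM in EV, 201.3–238.3 CPM in dnCEBP and 102.3–113.0 CPM in dnFOS, and at least 97.2% of each sum was ITGA2B, which fell in dnFOS against EV (-0.83 ± 0.09, edgeR adjusted p = 2.94e-07). The defining genes PF4, GP9 and GP1BA had at most 10 counts in any of the 6 libraries. PPBP, the fifth marker, stood at 1.68 and 1.10 CPM in EV and at 2.80 and 1.74 CPM in dnFOS, a difference that did not pass the test (0.73 ± 0.38, adjusted p = 0.202). The part of ITGA2B-expressing cells in the RGS differences was not tested. The 6 T and NK cell markers summed to 116.9–124.1 CPM in EV, 146.6–150.0 CPM in dnCEBP and 92.8–105.8 CPM in dnFOS, of which CD3D made up at least 97.7%. In every library CD8A stayed at or under 3 counts, CD3E at or under 4, KLRD1 at or under 5 and CD5 at or under 12. CD3D was lower in dnFOS than in EV (-0.28 ± 0.09, edgeR adjusted p = 0.0287) and than in dnCEBP (-0.58 ± 0.09, adjusted p = 2.49e-05). Its difference between dnCEBP and EV did not pass (0.30 ± 0.09, adjusted p = 0.0962), nor did CD2 in dnFOS against EV (-0.17 ± 0.40, adjusted p = 0.833). The part of CD3D-expressing cells in the RGS differences was not tested. The 5 B cell markers summed to 11.3–19.5 CPM over all libraries with MS4A1 and PAX5 at or under 3 counts.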

How the data were processed

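RNA was measured in 6 KO52 libraries, 2 per group, prepared per the labels with ribosomal RNA depletion and 15 PCR cycles and sequenced as 75-base read pairs. The authors deposited a table of raw, unnormalized counts for each library. The submitters' processing notes name Trimmomatic, HISAT2, featureCounts, Subread and hg38. The annotation and the use of strand in counting are not given in the sources used here, so reads of overlapping genes on opposite strands cannot be told apart.

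Of 60612 gene IDs, 58394 matched GENCODE release 29 on GRCh38, which gave coordinates (1-based) and exon lengths. Symbols came from a separate list of gene names, and from GENCODE where that list held none. edgeR 4.0.16 in R 4.3.3 was used with filterByExpr (minimum count 10, 15395 genes tested, at least 99.889% of each library's counts), TMM factors (0.956 to 1.05), and a robust quasi-likelihood fit of a mean per group to all 6 libraries (3 residual degrees of freedom). Two-sided p-values of the whole table received Benjamini-Hochberg adjustment, and a gene with an adjusted p under 0.05 is termed called. Standard errors come from the fold change and its F statistic. Similarity of profiles used log2 CPM with a prior count of 2 among genes with a mean of at least 1 CPM.

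The members, gene lists and tests were chosen with earlier results of these data known. Named were all members, each tested RGS relative, up to 6 called genes per pathway list and comparison, the genes nearest in profile to RGS1 (5) and RGS2 (3), tested genes within 500 kb of RGS1, RGS2 or RGS18, and markers by list; 1 marker list and 1 called pathway gene of this rule are not reported here. ITGA2B, CD3D and RO60 were singled out after their values were seen. Same-numbered libraries correlated at 0.0174 to 0.0879 over genes after removal of group means, so the numbers were not taken as pairs. Alternatives were to use all genes with a count, genes averaging 1 CPM or more, size factors by median of ratios, library totals, a GC and length trend removed (GC known for 98.9% of genes tested), only the 4 libraries compared, DESeq2 1.42.0, limma-voom (limma 3.58.1), a replicate block, and each library left out. Scripts were tested on simulated data. Count floors cover counting error only.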

Additional observations from a re-analysis of the deposited data

How the results depend on the processing

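Of 8 RGS genes, 2, 5 and 5 were called in dnCEBP against EV, dnFOS against EV and dnFOS against dnCEBP, and no setting with all libraries moved these counts by over 1.5 times. Leaving out 1 library gave 0 to 2, 4 to 5 and 4 to 5. For the other RGS genes it gave 0 to 1 in the last 2 comparisons, and limma-voom called 0 in dnFOS against EV. For pathway genes, leaving out 1 library gave 0 to 4, 10 to 17 and 4 to 17. In dnCEBP against EV 2 pathway genes were called with no filter, 4 with only the 4 libraries compared and 5 with the replicate block, in place of 1, and DESeq2 called 11 in place of 17 between the peptides. Over all genes, 255 were called in dnCEBP against EV with no filter and 297 with only the 4 libraries compared, in place of 165. DESeq2 called 1766 of all genes between the peptides in place of 2259. The cause was not tested. The replicate block raised the RGS genes called in dnCEBP from 2 to 3, by RGS18, and did not move the counts of 5. Over all genes tested the block raised the calls from 165 to 488 in dnCEBP against EV and from 2309 to 3172 in dnFOS against EV. Between the peptides it raised them from 2259 to 3013, and the reason was not tested. No called direction turned. Library totals moved the median of all genes by 0.121 on the log2 scale between the peptides and by 0.098 in dnFOS against EV, where lower calls went from 51.7% to 26.2% of those made, and between the peptides from 53.4% to 25.4%. Uncalled values near 0 changed sign: with the GC trend removed RGS19 in dnFOS became 0.13 and RGS14 in dnCEBP 0.06, and with library totals RGS18 in dnFOS became 0.05. That RGS3 and RGS19 were not called does not show that they did not differ.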
